A study of Mus musculus with 13 samples.

Results

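The DNA damage checkpoint reads DNA breaks and stalled replication forks and holds the cell cycle while they are dealt with. The 10 genes described here, Atm, Atr, Atrip, Chek1, Chek2, Trp53, Trp53bp1, Mdc1, Rnf8 and H2ax, were chosen by name as its apical kinases, effector kinases and chromatin mediators. Their symbols were matched to the gene identifiers through the mouse annotation, all 10 were among the 57010 genes listed, and all 10 were among the 15034 genes with enough counts to be tested. Their RNA was measured by bulk RNA-Seq in mouse embryonic fibroblasts (MEFs) of 4 groups, each with mice 4, 5 and 6. The control MEFs had received vehicle, and the senescent MEFs had received etoposide at 2 μM for 24 h and were kept for 5 days. The other groups were senescent MEFs to which Fucoidan-FV was then added for 12 h, at either 100 or 300 μg/mL. Etoposide is a topoisomerase II inhibitor that leaves DNA breaks, and Fucoidan-FV is a sulfated polysaccharide from the brown alga Fucus vesiculosus. The sample labels name all of these MEFs as wild type, and the model is limited to 1 cell type in culture and 1 inducer.

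ATM is the kinase activated at double-strand breaks, and ATR, held at single-stranded DNA by its partner ATRIP, responds to replication stress. They phosphorylate the effector kinases CHK2 (Chek2) and CHK1 (Chek1) and the transcription factor p53 (Trp53), which switches on cell cycle inhibitors. Around a break they phosphorylate the histone variant H2AX. MDC1 binds this mark, the ubiquitin ligase RNF8 binds MDC1, and the chain leads to the recruitment of 53BP1 (Trp53bp1), which favours repair by end joining. These are mostly controlled as proteins, by phosphorylation and location, and RNA levels show neither.

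The 13 libraries held between 22782536 and 31278750 expected counts, and libraries 5(1) and 5(2) of control mouse 5 were summed, which left 12 samples. The summed level of 9 fibroblast markers was 9490 to 15900 CPM (counts scaled to a total of 1000000 per sample) per sample. Of these, Vim was highest, at 3990 to 8650 CPM, and Lum (0 to 9.9), Pdgfra (1.85 to 26.2) and Dcn (0.673 to 167) were lowest. The muscle regulators Myod1 and Myog and the globins Hba-a1 and Hbb-bs had at most 1 count. The 6 macrophage markers summed to 0.516 to 3.9 CPM in control, 2.81 to 12.3 in senescent, 6.78 to 14.5 at 100 μg/mL and 4.26 to 11.5 at 300 μg/mL, and the 4 endothelial markers to 0.168 to 1.85, 1.33 to 1.82, 6.41 to 9.53 and 3.94 to 8.57 CPM. Their part in the results below was not tested. Epithelial markers summed to at most 1.95 CPM, erythroid markers to at most 0.482, neural markers to 26.0 to 87.8, most of it Tubb3, and skeletal muscle markers to 65.1 to 343, nearly all of it Acta1 and Des. In bulk RNA, fewer cells of a kind and less RNA per cell cannot be told apart.

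The libraries differed in ways the groups do not explain, and this touched several of the 10 genes. Over 827 genes in which more than 95% of the exonic bases lie in a single annotated transcript, the median log2 deviation of a library from the mean ran from −1.43 in control mouse 6 to 1.04 in the 100 μg/mL sample of mouse 5. It was −1.16 in library 5(1) and 0.97 in library 5(2), which come from the same mouse. Over 902 genes with a transcript longer than 8000 bases, the senescent library of mouse 6 deviated by −0.85. H2ax has 1 annotated transcript, Mdc1 has 86.8% of its exonic bases in a single transcript, and Atm, Atr, Chek1 and Trp53bp1 have transcripts of more than 8000 bases. Results are therefore given on the usual library scaling (TMM, trimmed mean of M values) and, where a count or call differs, also with offsets, which remove from each library the trend over all genes with the single-transcript share, the transcript length and the GC content. The trend was estimated from these same libraries. The CPM values below use library totals scaled by the TMM factors, while the marker sums above use raw totals.

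Senescent MEFs had less Chek1 and less Trp53 RNA than control MEFs. Of the 10 genes, 2 passed an adjusted p under 0.05 in edgeR's quasi-likelihood test, both lower, against 11.7% of all genes tested, and 1, Chek1, also passed the fold limit for a differentially expressed gene (DEG; absolute log2 fold change over 1), against 8.42% of all genes. On this scale counts of 2 and 1 in 10 are near the shares of all genes, so they are no result about the 10 genes as a group. The median log2 fold change of the 10 genes was −0.66, beside 0.07 over all genes. Estimates were below 0 for 9 of the 10, of which 2 passed, and the share of all genes below 0 was not counted. With offsets 5 of the 10 passed, all lower, against 22.4% of all genes, and 3 of them, Chek1, H2ax and Mdc1, were DEGs, against 11.1%.

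**Figure D1:**
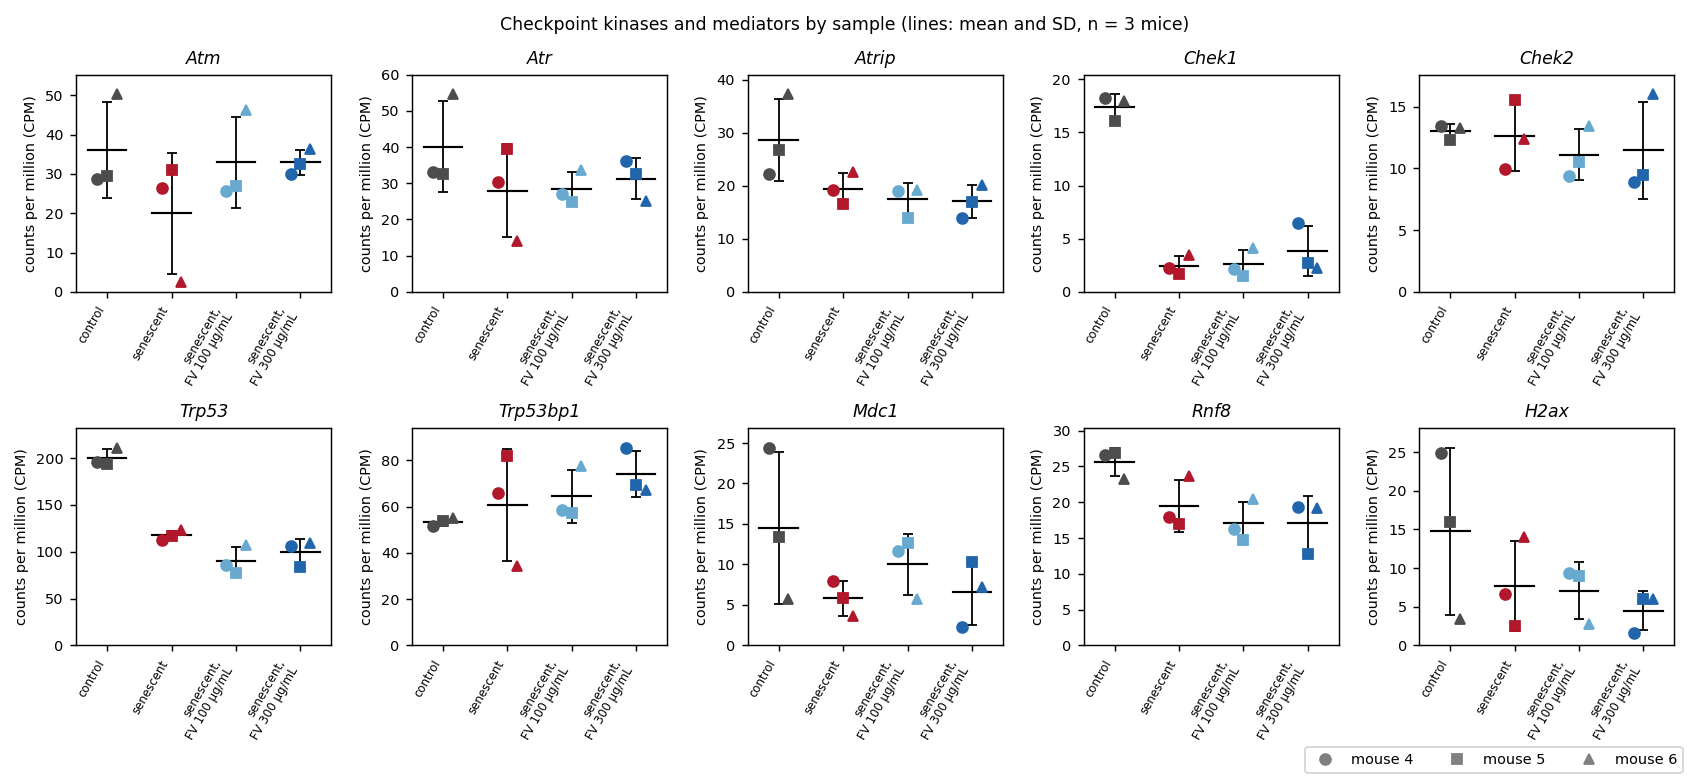
Each panel plots the CPM of 1 gene (vertical axis, linear from 0) in the 4 groups, with a symbol per mouse and lines for the mean and SD of 3 mice. Chek1 and Trp53 are lower in every senescent sample, treated or not, than in every control sample, while Atm in senescent mouse 6 (2.41 CPM) and H2ax in every group stand far apart within their groups.

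Chek1, the kinase that slows origin firing and blocks entry into mitosis downstream of ATR, had the largest change of the 10. It was at 18.2, 16.1 and 18.0 CPM in control mice 4, 5 and 6, and at 2.24, 1.68 and 3.5 CPM in the senescent cells of the same mice. Every senescent value lay below every control value, with wide separation between the groups. This was a log2 fold change of −2.81 (SE 0.51, 95% interval −3.92 to −1.7, edgeR adjusted p = 0.00331), which is 7.01-fold lower, and it was lower in 3 of 3 mice. Behind the senescent values stand 39 to 103 counts per library. Over 18 alternatives to the main settings the log2 fold change stayed between −3.41 and −2.43, and 18 of 18 kept an adjusted p under 0.05.

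The gene lies on chromosome 9 at 36614487 to 36638361 (GRCm39, minus strand), and 5 of the 10 genes, Atm, Atr, Atrip, Chek1 and H2ax, are on that chromosome. Over the 12 samples the log2 levels most like those of Chek1 were of Mcm8 (Pearson r = 0.974), which encodes a helicase, Blm (r = 0.967), a RecQ helicase, and Dnmt1 (r = 0.967), the maintenance DNA methyltransferase. These correlations describe 12 samples that share library effects and 1 large group difference.

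Chek2, the effector kinase of ATM, showed no such change. Its levels were 13.4, 12.3 and 13.3 CPM in control mice 4, 5 and 6, and 9.91, 15.5 and 12.4 CPM in senescent mice 4, 5 and 6. The senescent values lay on both sides of the control values. Its log2 fold change was −0.05 (SE 0.3, 95% interval −0.7 to 0.6, edgeR adjusted p = 0.95), so a change of the size seen for Chek1 lies outside the interval. The difference between Chek1 and Chek2 in their response was not itself tested.

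Trp53 encodes p53 and had the highest level of the 10 per transcript length, at 162 ± 7.77 TPM (transcripts scaled to a total of 1000000; SD, n = 3) in control MEFs. It was at 196, 194 and 211 CPM in control mice 4, 5 and 6, and at 113, 117 and 123 CPM in senescent mice 4, 5 and 6. The groups were tight and did not overlap. Between them the log2 fold change was −0.77 (SE 0.17, edgeR adjusted p = 0.0112), a 1.71-fold lower level in 3 of 3 mice, short of the fold limit for a DEG. It passed the adjusted p in 18 of 18 alternatives, between −0.82 and −0.68. Trp53 shares 3.56% of its exonic bases with Wrap53 on the opposite strand, and Wrap53 was at 9.48 CPM in control and 6.57 CPM in senescent MEFs on average.

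In the same samples, RNA of genes that p53 is known to switch on was higher. Of 14 p53 target genes, 7 were DEGs, all higher, and 0 passed in the lower direction. Cdkn1a, the cell cycle inhibitor p21, rose by 1.82 on the log2 scale (edgeR adjusted p = 6.8e-05), from 468 to 1650 CPM on average. Trp53inp1, a p53 partner, rose by 1.94, Pmaip1, the death factor Noxa, rose by 1.78, and Mdm2, the ubiquitin ligase that degrades p53, rose by 1.53. The other 7 of the 14 did not pass. The lists given here were written with earlier results of these data known, so their direction is no independent evidence.

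Promoter sequences from RefSeq (build GRCm38.p6, 250 bases before to 50 bases after the start) were matched for 9 of the 10 genes. The 250 bases before the start are printed for both genes that passed, Chek1 and Trp53, and for Chek2 and Mdc1, which hold an E2F-like motif. Each runs 5′ to 3′ on the gene's strand, with capitals for the motifs found on either strand.
Chek1 (chr9:36726659-36726908, minus strand): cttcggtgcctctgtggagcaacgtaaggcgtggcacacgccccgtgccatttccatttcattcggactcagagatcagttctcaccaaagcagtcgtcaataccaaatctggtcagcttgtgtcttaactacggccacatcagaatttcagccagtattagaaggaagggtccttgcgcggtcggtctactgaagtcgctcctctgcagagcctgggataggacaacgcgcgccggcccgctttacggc
Chek2 (chr5:110839733-110839982, plus strand): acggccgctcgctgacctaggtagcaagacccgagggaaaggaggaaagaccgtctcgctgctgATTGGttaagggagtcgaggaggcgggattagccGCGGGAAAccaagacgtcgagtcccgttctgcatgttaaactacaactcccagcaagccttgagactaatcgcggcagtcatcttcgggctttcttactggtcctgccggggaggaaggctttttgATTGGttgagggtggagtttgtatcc
Trp53 (chr11:69580109-69580358, plus strand): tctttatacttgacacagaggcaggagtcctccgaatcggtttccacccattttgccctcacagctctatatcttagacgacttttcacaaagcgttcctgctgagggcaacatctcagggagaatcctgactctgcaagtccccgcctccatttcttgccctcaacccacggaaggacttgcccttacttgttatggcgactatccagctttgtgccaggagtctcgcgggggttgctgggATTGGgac
Mdc1 (chr17:35841248-35841497, plus strand): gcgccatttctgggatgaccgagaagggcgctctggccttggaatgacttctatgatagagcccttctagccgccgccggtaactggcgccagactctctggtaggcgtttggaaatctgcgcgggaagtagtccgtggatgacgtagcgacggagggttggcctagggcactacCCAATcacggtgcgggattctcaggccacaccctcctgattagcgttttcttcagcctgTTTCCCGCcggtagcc
The letters TTTGGCGC, TTTCGCGC and TTTCCCGC, forms of the site of the E2F cell cycle factors, were found in 2 of 9 promoters, Chek2 and Mdc1 (each as TTTCCCGC), against 1.84% of 32851 promoters of the same length. CCAAT, the NF-Y box, was found in 6 of 9, against 37.4%. TTTGAA, the cell cycle homology element, was found in 1 of 9, Rnf8, where it shares a base with a CCAAT, against 17.9%. None of these letters were in the Chek1 window. A further E2F-like form, TTTGGCGG, looked for after the Chek1 sequence had been seen, starts 40 bases into the transcribed part of that window and is in 0.56% of all promoters. A match is a description of letters and not of binding.

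Atr and Atrip, which act as a complex, had estimates below 0 that did not pass on the TMM scale. Atr was at 33.0, 32.7 and 54.6 CPM in control mice 4, 5 and 6, and at 30.3, 39.6 and 14.1 CPM in senescent mice 4, 5 and 6. The groups overlapped, and the widest gap was in mouse 6, whose senescent library is low in long transcripts. For Atr the log2 fold change was −0.52 (SE 0.34, edgeR adjusted p = 0.384), and −0.2 (adjusted p = 0.676) without that library.

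With offsets Atr became one of the tightest of the 10 genes. The adjusted levels were 42.4, 39.5 and 47.7 CPM in control mice 4, 5 and 6, and 30.1, 30.1 and 31.5 CPM in senescent mice 4, 5 and 6. All senescent values then lay below all control values. On this scale the log2 fold change was −0.5 (SE 0.14, edgeR adjusted p = 0.0242), and −0.52 (adjusted p = 0.0261) when senescent mouse 6 was also left out. The SD of its log2 levels within groups went from 0.47 to 0.12. Offsets did not tighten every gene. This SD rose from 0.62 to 0.76 for Chek1, from 0.25 to 0.42 for Rnf8 and from 0.29 to 0.3 for Atrip, and fell for the rest of the 10. In senescent mouse 6 Chek1 went from 3.5 to 7.1 CPM with offsets, beside 2.22 and 1.3 CPM in senescent mice 4 and 5.

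Atrip was at 22.2, 26.7 and 37.3 CPM in control mice 4, 5 and 6, and at 19.3, 16.5 and 22.6 CPM in senescent mice 4, 5 and 6. The groups met at their edges, and the value was lower in 3 of 3 mice. For Atrip the log2 fold change was −0.56 (SE 0.27, edgeR adjusted p = 0.209), and −0.61 (adjusted p = 0.0878) with offsets. Atrip shares 10.1% of its exonic bases with Trex1, an exonuclease gene on the same strand, so that some reads could be divided between them.

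Atm had 1 library far from the others. It was at 28.6, 29.6 and 50.3 CPM in control mice 4, 5 and 6, and at 26.5, 31.0 and 2.41 CPM in senescent mice 4, 5 and 6. The senescent value of mouse 6 rests on 71 counts, against 830 and 718 in mice 4 and 5, where the control and senescent levels were alike. For Atm the log2 fold change was −0.86 (SE 0.6, edgeR adjusted p = 0.424), and −0.33 (adjusted p = 0.497) without senescent mouse 6. With offsets that sample was at 5.73 CPM, still the lowest of the 12 samples. Over the 12 samples Atm was most like Atrx (r = 0.989), Zmiz1 (r = 0.983) and Smad5 (r = 0.982).

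H2ax and Mdc1, which encode the histone variant and the protein that binds its phosphorylated form, varied widely between libraries of 1 group. Neither passed on the TMM scale. H2ax was at 24.9, 15.9 and 3.38 CPM in control mice 4, 5 and 6, and at 6.61, 2.46 and 14.0 CPM in senescent mice 4, 5 and 6. The lowest of the controls was mouse 6, whose senescent sample was the highest of its group, so that mouse 6 ran opposite to mice 4 and 5. Libraries 5(1) and 5(2) of the same control mouse held 158 and 654 counts of H2ax. For H2ax the log2 fold change was −0.94 (SE 0.76, edgeR adjusted p = 0.499).

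For H2ax the trend over all genes differed widely between libraries. The offset, the log2 deviation the trend assigns to H2ax, was −1.42 in control mouse 6 and 1.08 in senescent mouse 6. Over the 12 samples the levels most like those of H2ax were of Anp32b (r = 0.993), which also has 1 annotated transcript, of Hars1 (r = 0.992), which has 4, and of Tubb4b (r = 0.99), which has 2. With offsets H2ax was at 19.3, 14.5 and 9.08 CPM in control mice 4, 5 and 6, and at 5.47, 4.43 and 6.62 CPM in senescent mice 4, 5 and 6. The groups then no longer overlapped, and the SD of the log2 levels within groups went from 1.24 to 0.44. Its log2 fold change was then −1.38 (SE 0.33, 95% interval −2.1 to −0.65, edgeR adjusted p = 0.0108), and −1.53 (adjusted p = 0.0166) without senescent mouse 6.

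**Figure D2:**
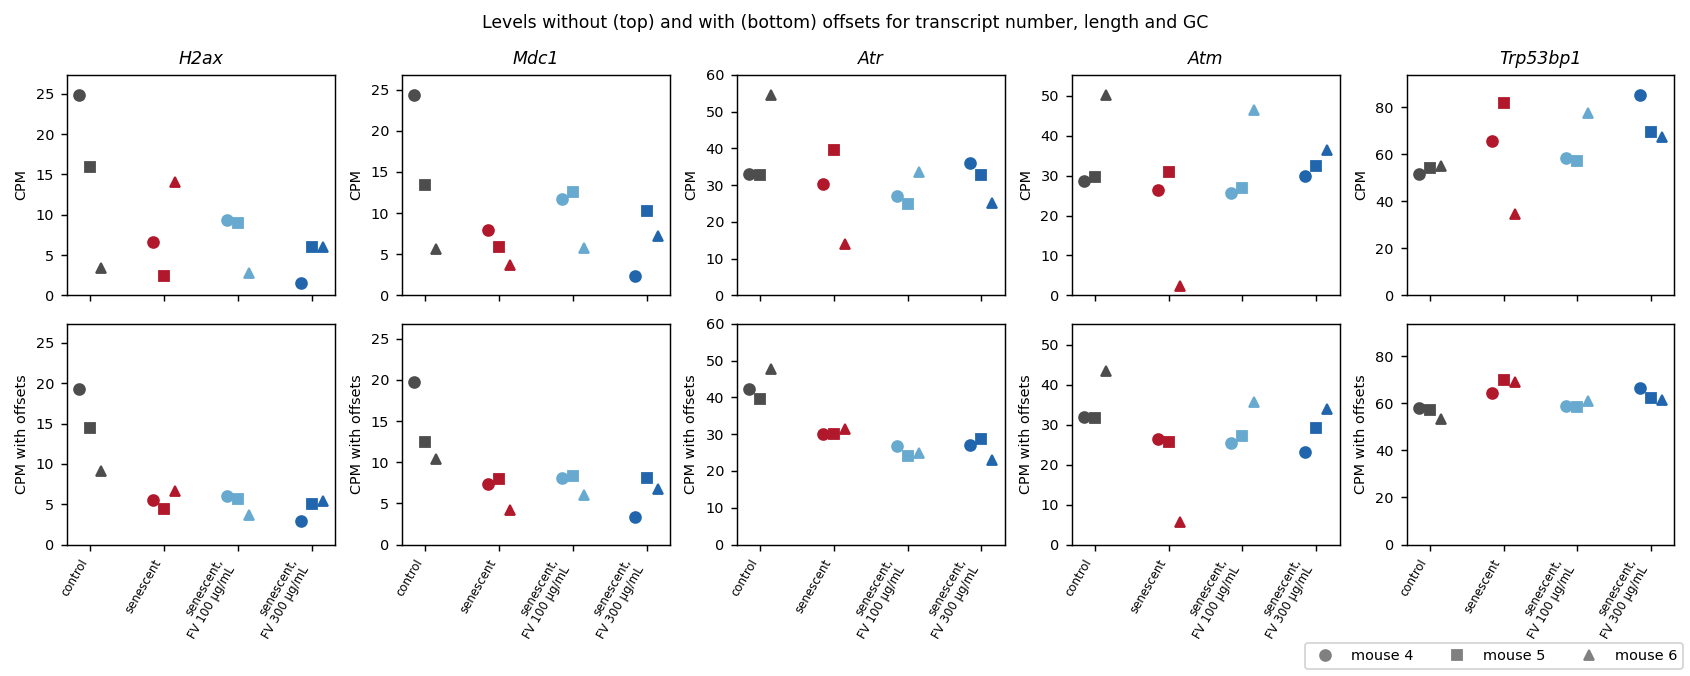
For 5 of the genes the upper panels plot CPM and the lower panels CPM with offsets, on the same linear axis from 0, by group, with a symbol per mouse. With offsets H2ax and Atr no longer overlap between control and senescent samples, while Atm in senescent mouse 6 stays far below the rest.

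Mdc1 also spread widely. It was at 24.4, 13.4 and 5.69 CPM in control mice 4, 5 and 6, and at 7.99, 5.82 and 3.67 CPM in senescent mice 4, 5 and 6. The spread among controls was wider than the gap between the groups, although each mouse was lower. For Mdc1 the log2 fold change was −1.32 (SE 0.59, edgeR adjusted p = 0.182). With offsets it was −1.13 (SE 0.37, adjusted p = 0.0444), and −0.9 (adjusted p = 0.118) when senescent mouse 6 was also left out. The call was thus lost without that library, and no other library was left out with offsets.

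Rnf8 and Trp53bp1, which act after MDC1, did not pass. Rnf8 was at 26.6, 26.9 and 23.3 CPM in control mice 4, 5 and 6, and at 17.9, 17.0 and 23.7 CPM in senescent mice 4, 5 and 6. Mice 4 and 5 were lower and mouse 6 level, and the log2 fold change was −0.39 (SE 0.25, edgeR adjusted p = 0.373). It shares 9.93% of its exonic bases with the read-through gene Gm28043 on the same strand, which was at 26.0 CPM in control and 25.6 CPM in senescent MEFs on average.

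Trp53bp1 was the only one of the 10 with an estimate above 0. It was at 51.6, 54.0 and 54.9 CPM in control mice 4, 5 and 6, and at 65.8, 81.8 and 34.5 CPM in senescent mice 4, 5 and 6. Mouse 6 alone lay below the controls, again in the library low in long transcripts. The log2 fold change was 0.18 (SE 0.27, edgeR adjusted p = 0.746), 0.47 (adjusted p = 0.0411) without senescent mouse 6 and 0.27 (adjusted p = 0.0851) with offsets. The offsets brought the 3 senescent values to between 64.6 and 69.9 CPM and the controls to between 53.3 and 58.0 CPM. Tubgcp4 on the opposite strand shares 17.9% of the exonic bases of Trp53bp1.

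**Figure D3:**
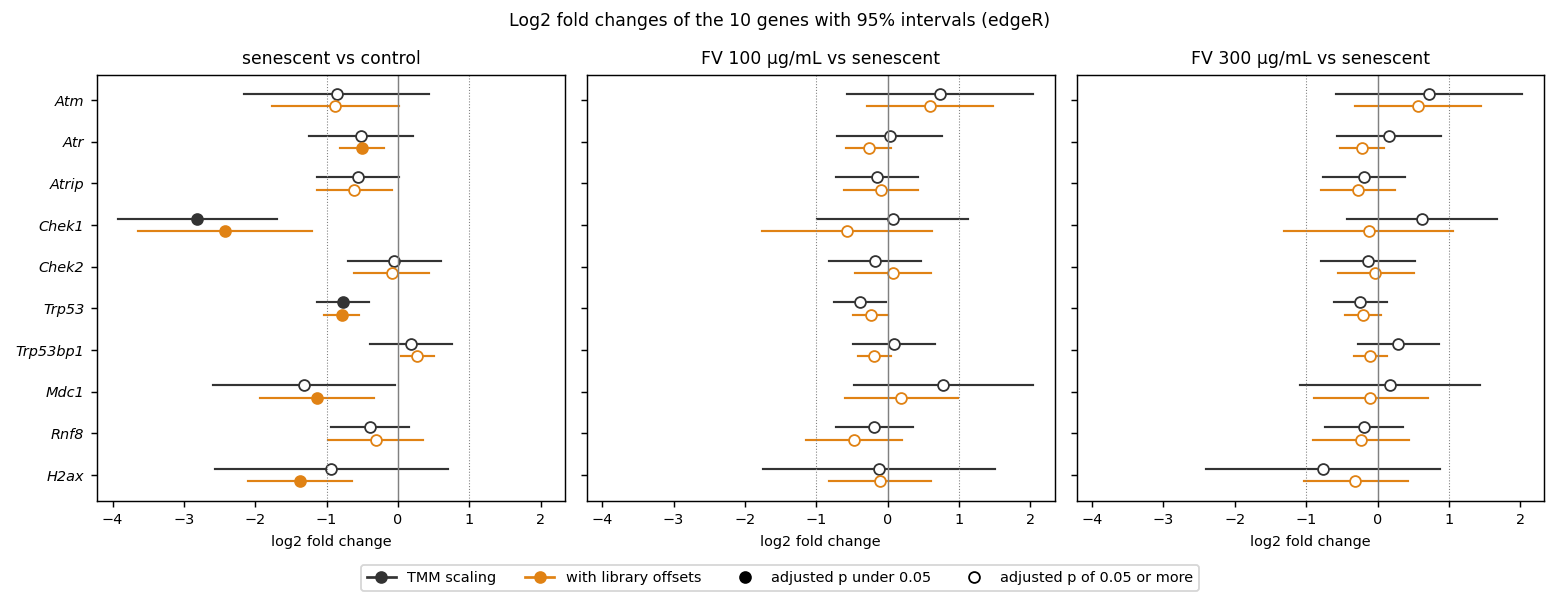
Points are log2 fold changes (horizontal axis) of the 10 genes in 3 comparisons, on the TMM scale and with offsets, with 95% intervals, and filled points have an adjusted p under 0.05. Chek1 and Trp53 are filled on both scales in senescent against control MEFs, Atr, Mdc1 and H2ax with offsets alone, and no point is filled in either Fucoidan-FV comparison.

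The partners of these genes differed in how they moved between control and senescent MEFs. Of 12 partners in ATR activation and replication stress, 7 passed, all lower, and 5 were DEGs, with a median log2 fold change of −1.34 beside 0.07 over all genes. Clspn, the claspin adaptor through which ATR activates CHK1, fell by 5 on the log2 scale, from 25.7 to 0.801 CPM. Timeless, of the fork protection complex, fell by 3.85, Rpa2, of the single-strand binding complex, by 1.72, and Topbp1, an ATR activator, by 1.68. All 7 of these that passed had a lower level in 3 of 3 mice.

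The mitotic switches on which the checkpoint kinases act were lower too. Of 8 genes of the CDC25, WEE1 and PLK1 group, 7 were DEGs, all lower, with a median of −2.96. Plk1, the mitotic kinase, fell by 4.38, Cdc25c by 4.16, Pkmyt1, which restrains CDK1, by 3.56, and Cdk1 by 3.44 on the log2 scale. Of 12 proliferation markers, 12 were DEGs, all lower, with a median of −3.88, among them Mki67 at −4.57, Top2a at −4.56, Ccnb1 at −4.29 and Ccna2 at −4.26.

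In the lists closer to break sensing and chromatin, shares near the 11.7% of all genes passed. Of 6 genes of break sensing and ATM activation, 1 passed, the nuclease gene Mre11a, which fell by 1.13 on the log2 scale (edgeR adjusted p = 0.00502). Of 7 other kinases of the ATM family and their assembly factors, 0 passed, with a median of −0.27. Of 13 ubiquitin and BRCA1-A genes that act after MDC1, 1 was a DEG, Brca1, at −3.2, and Babam2 passed in the higher direction at 0.75. Of 8 effectors of 53BP1, 1 was a DEG, Paxip1, at −1.38.

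Among 13 genes for phosphatases and kinases of H2AX and for other H2A variants, 1 was a DEG, the variant gene H2az1, at −2.14. Of 10 regulators of p53, 2 were DEGs, Mdm2 and Trp53inp1, both higher and both also in the list of p53 targets.

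With offsets more genes of these lists passed, as did more of all genes (22.4%). The counts that passed were 9 of 12 for the ATR partners, 8 of 8 for the CDC25, WEE1 and PLK1 group, and 8 of 14 for the p53 targets. For break sensing 2 of 6 passed, with the Mre11a partner Rad50 added at −0.5. For the other kinases of the ATM family and their assembly factors it was 2 of 7, Trrap at −0.49 and Telo2 at −0.62. Among the ubiquitin and BRCA1-A genes 4 of 13 passed, with Rnf168, the ubiquitin ligase that acts after RNF8, added at −0.53 and Bard1, the partner of BRCA1, at −2.7. Among the effectors of 53BP1 2 of 8 passed, with Rif1 added at −1.12. For the H2AX phosphatases and H2A variants it was 3 of 13, with Macroh2a2 added at −1.34 and H2aj at 0.84. Of the 10 p53 regulators 5 passed, with Mdm4 at −0.73, Usp7 at −0.46 and Wrap53 at −0.83 added in the lower direction, where the TMM scale had 0. These added genes were named after their values were seen.

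**Figure D4:**
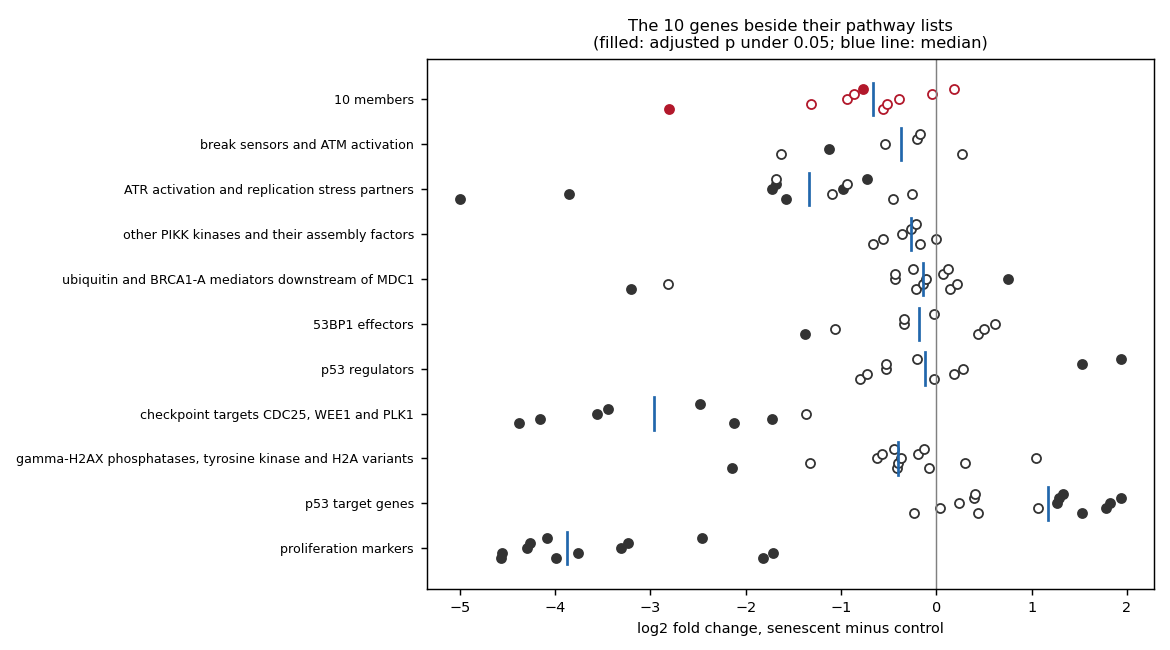
Each point is the log2 fold change (horizontal axis) of 1 gene between senescent and control MEFs, for the 10 genes and 10 related lists, filled where the adjusted p was under 0.05, with a blue line at each median. The medians run from −3.88 for proliferation markers to 1.17 for p53 targets, with the 10 genes at −0.66.

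After senescent MEFs were treated with Fucoidan-FV for 12 h, no call was made among the 10 genes. At 100 μg/mL 0 of 10 passed the adjusted p and 0 were DEGs, against 4.02% and 2.69% of all genes. At 300 μg/mL the counts were again 0 and 0, against 1.9% and 1.64%. By edgeR's unadjusted p, 1 of the 10 genes, Trp53, was under 0.05 at 100 μg/mL, and 0 were at 300 μg/mL. With offsets 0 of 10 passed at either dose, against 7.56% and 5.83% of all genes, and DESeq2 and the other alternatives also gave 0 DEGs among the 10 at both doses. A count of 0 in 10 is near these shares of all genes, so the counts are no result about the 10 genes as a group. All comparisons with senescent MEFs share the same 3 senescent samples.

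Trp53 was at 85.5, 76.8 and 107 CPM at 100 μg/mL and at 106, 83.6 and 109 CPM at 300 μg/mL in mice 4, 5 and 6. These 6 values all lie below the 3 untreated senescent values, which began at 113 CPM. The log2 fold change against senescent MEFs was −0.39 (SE 0.17, 95% interval −0.76 to −0.02, edgeR adjusted p = 0.225) at 100 μg/mL and −0.24 (SE 0.17, 95% interval −0.61 to 0.13, adjusted p = 0.566) at 300 μg/mL. On the TPM scale of the authors the means were close, at 98.7 ± 8.95 in senescent MEFs, 102 ± 6.05 at 100 μg/mL and 103 ± 7.72 at 300 μg/mL (SD, n = 3). TPM divides by transcript length and also does not use the TMM factors. These were 1, 0.906 and 0.955 in senescent mice 4, 5 and 6, and 1.15, 1.16 and 0.994 at 100 μg/mL. The source of the difference between the scales was not tested.

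Chek1 did not pass at either dose. It was at 2.19, 1.48 and 4.12 CPM at 100 μg/mL and at 6.51, 2.67 and 2.28 CPM at 300 μg/mL in mice 4, 5 and 6. The value of mouse 4 at 300 μg/mL was the highest of the 9 senescent samples and still below every control. The log2 fold change was 0.07 (95% interval −0.99 to 1.12, edgeR adjusted p = 0.958) at 100 μg/mL and 0.62 (95% interval −0.43 to 1.68, adjusted p = 0.616) at 300 μg/mL. With offsets the estimates were −0.57 and −0.12, and neither passed. When senescent mouse 6 was also left out they were 0.4 and 0.85, and with offsets and the replicate block −0.48 and 0.03, so the sign was not settled.

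Atm had the largest estimates above 0 among the kinases at both doses, and these turned on the senescent library of mouse 6. It was at 25.7, 27.0 and 46.4 CPM at 100 μg/mL and at 29.9, 32.5 and 36.4 CPM at 300 μg/mL in mice 4, 5 and 6. In mice 4 and 5 the treated and untreated levels were alike. The log2 fold change was 0.73 (SE 0.6, edgeR adjusted p = 0.555) at 100 μg/mL and 0.72 (SE 0.6, adjusted p = 0.647) at 300 μg/mL, and without senescent mouse 6 they were 0.32 (adjusted p = 0.589) and 0.25 (adjusted p = 0.842).

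For the mediators the intervals were wide. H2ax was at 9.39, 9.01 and 2.8 CPM at 100 μg/mL and at 1.55, 6.01 and 5.97 CPM at 300 μg/mL in mice 4, 5 and 6, inside or just under the range of the untreated senescent samples. Its log2 fold changes were −0.12 (95% interval −1.75 to 1.5) and −0.77 (95% interval −2.41 to 0.87), so a 2-fold change in either direction lay inside the interval at 100 μg/mL, and a 2-fold fall inside that at 300 μg/mL. With offsets the intervals narrowed to −0.82 to 0.61 and −1.03 to 0.42. Mdc1 had estimates of 0.78 (95% interval −0.48 to 2.04) and 0.18 (95% interval −1.08 to 1.44).

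On the TMM scale the other members were held more closely. Trp53bp1 was at 58.5, 57.1 and 77.7 CPM at 100 μg/mL and at 85.4, 69.5 and 67.4 CPM at 300 μg/mL in mice 4, 5 and 6, with log2 fold changes of 0.09 (95% interval −0.49 to 0.66) and 0.29 (95% interval −0.28 to 0.86). Estimates for Atr, Atrip, Chek2 and Rnf8 lay between −0.19 and 0.16 at both doses. Their 95% intervals reached from −0.83 to 0.89 at the widest. With offsets Rnf8 was at −0.47 (95% interval −1.14 to 0.2) at 100 μg/mL, an interval that reached past the fold limit for a DEG. At 300 μg/mL it was at −0.23 (95% interval −0.9 to 0.44). For the lower and higher dose, offsets gave −0.27 and −0.22 for Atr, −0.1 and −0.27 for Atrip, and 0.07 and −0.03 for Chek2.

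Among the genes of the related lists some passed with Fucoidan-FV, where 4.02% of all genes passed at 100 μg/mL and 1.9% at 300 μg/mL. Rpa1, the large subunit of the single-strand binding complex that brings ATRIP to DNA, was the 1 DEG of the 12 ATR partners at both doses. It was at 141 ± 27.2 CPM in senescent MEFs, 63.2 ± 7.81 at 100 μg/mL and 67.5 ± 2.68 at 300 μg/mL (SD, n = 3). The log2 fold change was −1.16 (SE 0.18, edgeR adjusted p = 0.00542) and −1.07 (SE 0.18, adjusted p = 0.0103), lower in 3 of 3 mice at each dose.

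At 100 μg/mL the other DEGs of the lists were Dynll1, a dynein light chain that binds 53BP1, at −1.02, Bora, an activator of PLK1, at −1.3, and Mcm6, a replicative helicase subunit, at −1.09. Macroh2a1, an H2A variant, passed at −0.72 without reaching the fold limit. At 300 μg/mL Rpa1 was the only gene of the lists that passed on the TMM scale. With offsets 4 passed at 300 μg/mL, against 5.83% of all genes. These were Rpa1 at −1.29, Eya4, of the phosphatase family that acts on H2AX, at 1.16, Macroh2a1 at −0.62, and Mcm5, a replicative helicase subunit, at −1.73. At 100 μg/mL Dynll1 passed with offsets at −0.81, short of the fold limit, and Eya4 was a DEG at 1.29. Ube2n, a ubiquitin-conjugating enzyme that works with RNF8, at −0.48 and Cop1, a ubiquitin ligase for p53, at −0.91 passed there with offsets and not on the TMM scale. Of the 14 p53 targets 0 passed at either dose on either scale, with TMM medians of 0.12 and 0.01. Of the 12 proliferation markers, 10 at 100 μg/mL and 12 at 300 μg/mL had TMM estimates below 0, and 1 and 0 passed. Their TMM medians were −0.69 and −0.62, beside −0.02 and 0 over all genes, and −0.75 and −0.86 with offsets. Their shared direction was not tested.

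Between the doses, 0 of the 10 genes passed and 0 were DEGs, against 0.00665% of all genes by either rule, which is 1 gene. The estimates of 300 μg/mL against 100 μg/mL ran from −0.65 for H2ax (95% interval −2.29 to 0.99) to 0.56 for Chek1 (95% interval −0.5 to 1.61). Unadjusted p was under 0.05 for 0 of the 10.

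Against control MEFs, which these comparisons share with the one above, Chek1 and Trp53 were again the genes that passed. At 100 μg/mL 2 of 10 passed and the same 2, Chek1 and Trp53, were DEGs, against 26.6% and 19.7% of all genes. At 300 μg/mL the same 2 passed and were DEGs, against 24.4% and 18% of all genes. The members' share of 2 in 10 is near these shares of all genes, so the counts are no result about the 10 genes as a group.

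Chek1 was lower than in control MEFs by a log2 fold change of −2.74 (SE 0.51, edgeR adjusted p = 0.00163) at 100 μg/mL and −2.19 (SE 0.5, adjusted p = 0.00635) at 300 μg/mL. For Trp53 the values were −1.16 (SE 0.17, adjusted p = 0.000356) and −1.01 (SE 0.17, adjusted p = 0.000976), the latter at the edge of the fold limit. Both genes were lower in 3 of 3 mice at each dose.

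With offsets 5 of the 10 passed at 100 μg/mL, against 37.9% of all genes, and 6 at 300 μg/mL, against 36.5%, all lower. At each dose 3 were DEGs, against 22.4% and 21.2% of all genes. Chek1 was among them at both doses. Trp53 passed at both, but was a DEG at 100 μg/mL alone, at −1.03, with −0.99 at 300 μg/mL. Atrip, which did not pass on the TMM scale, passed at −0.71 (edgeR adjusted p = 0.0343) and −0.88 (adjusted p = 0.0124), short of the fold limit. H2ax was a DEG at both doses, at −1.48 (edgeR adjusted p = 0.004) and −1.68 (adjusted p = 0.00202), and Atr passed at −0.77 (adjusted p = 0.00114) and −0.72 (adjusted p = 0.00188). Mdc1 was a DEG at 300 μg/mL alone, at −1.23 (adjusted p = 0.0201), and at 100 μg/mL it was at −0.93 (adjusted p = 0.0607). The difference between the doses in Mdc1 did not pass.

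Levels of the 10 genes can be set side by side on the TPM scale, which divides by transcript length. In control MEFs Trp53, at 162 ± 7.77 TPM, stood far above the rest. Rnf8 followed at 27.3 ± 3.91, Trp53bp1 at 20.6 ± 2.43, H2ax at 17.1 ± 12.6, Atrip at 13.3 ± 2.8, Chek1 at 10.5 ± 2.34, Chek2 at 9.35 ± 1.94, Mdc1 at 7.47 ± 3.06, Atr at 7.04 ± 3.24 and Atm at 5.64 ± 1.25 TPM (SD, n = 3). Neighbours from Trp53bp1 down to Atm differed by less than the sum of their SDs, so their order is not firm. In senescent MEFs Chek1 was the lowest of the 10, at 1.73 ± 0.225 TPM.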

How the data were processed

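Bulk RNA-Seq of 13 libraries from mouse embryonic fibroblasts was analysed, with 3 mice in each of 4 groups. Per the methods and the submitters' processing notes, RNA was made into stranded total RNA libraries, checked with FastQC 0.12.1, trimmed with Trimmomatic, aligned with STAR 2.7.11b to GRCm39 with an Ensembl annotation and quantified with RSEM 1.3.1. Whether counting used strand is not given in the sources used here. RSEM divides a read that matches several transcripts or genes among them, which can move counts between overlapping genes. The authors deposited expected counts per gene, not normalized, and TPM values, scaled by RSEM for transcript length and library size, which were used for levels between genes and in no test. Of 57010 genes, 56310 were matched to the GENCODE vM39 annotation.

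Expected counts were rounded, libraries 5(1) and 5(2) of control mouse 5 were summed, and low genes were removed with filterByExpr (counts of at least 10, total of at least 15), leaving 15034. Groups were compared by edgeR 4.0.16 under R 4.3.3 (quasi-likelihood test, TMM factors, 1 fit over the 4 groups, Benjamini-Hochberg adjustment over the genes tested). A DEG has a log2 fold change over 1 in size with an adjusted p under 0.05. Offsets came from a spline trend per library of the log2 deviations on single-transcript share, transcript length and GC content. The labels number the mice, and the number is read as the animal, so that the labels pair the samples. After removing group means, same-numbered samples correlated at −0.204 to 0.425 in 18 pairs, of which 8 exceeded 0.1, with a median of −0.00625. The 3 mice per group are the only replicates, and the libraries held 22782536 to 31278750 counts. The fit was tested on simulated data with known changes.

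Genes named are the 10 members, at most the 4 DEGs of largest change per list and comparison, the other calls of the lists under Fucoidan-FV, genes that overlap a member or are most like it, and cell type markers (fibroblast, macrophage, endothelial, skeletal muscle, epithelial, neural, erythroid). The members and lists were chosen with earlier results of these data known. The alternatives were RLE factors, DESeq2 1.42.0, no filter beyond 1 count, at least 10 counts in every sample, only the 2 groups compared, libraries 5(1) and 5(2) as separate samples or alone, the mouse as a replicate block, each mouse left out, the offsets with and without the block, and the adjusted p alone. List genes that passed with offsets alone were named after their values were seen. Chosen after seeing the data were the offsets without senescent mouse 6 and the motif TTTGGCGG. No protein sequences were used here.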

Additional observations from a re-analysis of the deposited data

How the results depend on the processing

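The lower Chek1 and Trp53 levels of senescent MEFs kept their direction and an adjusted p under 0.05 in 18 of 18 alternatives. In both Fucoidan-FV comparisons with senescent MEFs and between the doses, 0 of the 10 genes were DEGs in every alternative run. Between senescent and control MEFs, 1 gene was a DEG when any mouse was left out and 2 genes passed by the adjusted p alone. There were 3 DEGs with offsets, 3 with offsets and the replicate block, and 2 with offsets without senescent mouse 6. Against control MEFs at 100 μg/mL, leaving out a mouse gave 1 to 2 DEGs, with 1 without control mouse 6. At 300 μg/mL, where Trp53 lies at the fold limit, RLE factors, DESeq2, at least 10 counts in every sample, the 2 groups alone, separate libraries of control mouse 5 and library 5(2) alone each gave 1 DEG, and leaving out a mouse gave 1 to 2, with 1 without any of the control mice or mouse 5 of the 300 μg/mL group. With the mouse as a replicate block (paired by the labels), Chek1 was at −2.88 (edgeR adjusted p = 0.00472) and Trp53 at −0.77 (adjusted p = 0.0133), and the block changed no call of the 10 genes on the TMM scale in these comparisons or in the Fucoidan-FV comparisons with senescent MEFs.

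The estimates below changed sign, and none of these passed the threshold on either side except Trp53bp1 between senescent and control MEFs, at 0.47 (edgeR adjusted p = 0.0411) without senescent mouse 6. The cause was not tested. At 100 μg/mL against senescent MEFs, offsets gave −0.27 for Atr, −0.57 for Chek1, 0.07 for Chek2 and −0.19 for Trp53bp1. With offsets and the replicate block these were −0.27, −0.48, 0.07 and −0.19. With offsets and without senescent mouse 6, the log2 fold change was −0.25 for Atr, 0.04 for Atrip, 0.05 for Chek2, −0.18 for Trp53bp1, −0.04 for Mdc1 and 0.04 for H2ax. In the fit of the 2 groups alone H2ax was at 0. At 300 μg/mL, offsets gave −0.22 for Atr, −0.12 for Chek1, −0.1 for Trp53bp1 and −0.1 for Mdc1. With offsets and the replicate block Atr was at −0.22, Trp53bp1 at −0.1 and Mdc1 at −0.05. With offsets and without senescent mouse 6 Atr was at −0.2, Trp53bp1 at −0.08 and Mdc1 at −0.33. The sign change of Chek1 with offsets was lost without senescent mouse 6, at 0.4 and 0.85 for the lower and higher dose, and at 300 μg/mL with the block, at 0.03.

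Leaving out each mouse in turn moved Chek2 from −0.22 to 0.08 and Trp53bp1 from −0.07 to 0.47 between senescent and control MEFs. At 100 μg/mL against senescent MEFs the ranges were −0.15 to 0.48 for Atr, −0.23 to 0.11 for Atrip, −0.43 to 0.5 for Chek1, −0.34 to 0.13 for Chek2, −0.07 to 0.48 for Trp53bp1, −0.33 to 0.11 for Rnf8 and −0.38 to 0.82 for H2ax. At 300 μg/mL they were −0.11 to 0.53 for Atr, 0 to 0.98 for Chek1, −0.46 to 0.08 for Chek2, −0.29 to 0.59 for Mdc1, −0.29 to 0.01 for Rnf8 and −1.11 to 0.04 for H2ax. Over the 9 senescent libraries, treated or not, Chek1 rests on 39 to 168 counts and Trp53 on 2028 or more. Over all genes, the DEGs against senescent MEFs numbered 405 at 100 μg/mL and 246 at 300 μg/mL, and 770 and 606 with DESeq2, 800 and 580 with no filter, 168 and 101 in the fit of the 2 groups alone, 449 at 300 μg/mL with offsets and 467 with offsets and the block. Leaving out a mouse of either group gave as few as 136 and 46. Between senescent and control MEFs there were 1266, and 699 in the fit of the 2 groups alone.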
